A study of Mus musculus with 6 samples.

Results

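LACE-seq maps the RNA nucleotides to which a protein was crosslinked, and here it was applied to YTHDC1, the nuclear reader of N6-methyladenosine (m6A), in mouse muscle cells. Satellite cells are the stem cells of skeletal muscle, and the ASC-48 hr libraries came from satellite cells activated by 48 hr in culture and labelled wild type. Biological replicates B1 and B2 were each made into technical replicates T1 and T2, which gives 4 libraries, and 2 more libraries came from C2C12, an established myoblast line. C2C12 is a culture surrogate of activated satellite cells, and the study's text calls its 2 libraries technical replicates where the labels number them as biological ones. Described here are the ASC-48 hr peaks that lay on a run of A. A peak was a member when the mm9 sequence on the strand of its reads held at least 10 A in a row within 20 nt of the peak and no run of at least 10 G in the same window. The rule picked 895 of 46247 ASC-48 hr peaks, namely 139 of 8115 in B1 T1, 156 of 10759 in B1 T2, 179 of 7925 in B2 T1 and 421 of 19448 for B2 T2, the order in which values of the 4 libraries are given below. In C2C12 it picked 346 of 60540 peaks in replicate 1 and 485 of 71992 in replicate 2.

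YTHDC1 recognises m6A mostly where A follows G and precedes C, and in the nucleus it acts on splicing and on the export of RNA. Homopolymer runs of A are common in mammalian genomes, as the tails of SINE and LINE elements and as short tracts in introns. A run of A on the strand of the reads has 2 possible meanings, because in the peak lists without such runs the strand given was mostly opposite to the gene, in 90.9% and 93.8% of the C2C12 peaks. Where the read comes from the RNA of that gene, the RNA itself holds a run of U. Genes of RNA polymerase III, among them tRNA genes and the gene of U6, the small nuclear RNA of the spliceosome, end in such a run of T. The protocol also adds a tail of A to the cDNA and primes the second strand with oligo-(dT), and the authors trimmed tails of A from the reads before alignment.

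Sequences are shown first, because the members were told apart mainly by the letters beside the run. Each line gives mm9 sequence, 5′ to 3′ on the strand of the reads, of a peak and the 20 nt on either side of it, with the A run in capitals and, where at least 5 G follow within 3 nt of the run, that G stretch in capitals too. The first set shows the leading kind, an A run followed by a G stretch, at peaks listed in all 4 ASC-48 hr libraries. All 3 also hold the letters CTTT directly before the run. They are not typical in this, since CTT and any base preceded the run in 15.5% to 31.2% of the members with a G stretch.
chr1:143965221-143965280, plus strand, outside genes: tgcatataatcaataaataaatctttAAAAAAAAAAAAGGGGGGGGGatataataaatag
chr8:111760841-111760900, plus strand, intron of D030068K23Rik: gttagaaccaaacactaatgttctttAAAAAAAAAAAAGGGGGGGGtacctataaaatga
chr9:67662541-67662600, minus strand, outside genes: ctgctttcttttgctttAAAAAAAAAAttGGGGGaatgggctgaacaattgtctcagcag

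The second set holds no G stretch, and shows the letters CTT and any base directly before the run, a pattern noticed in these data and written CTTN below. All 3 had a peak listed in all 4 ASC-48 hr libraries.
chr10:36484921-36484980, minus strand, intron of Hs3st5: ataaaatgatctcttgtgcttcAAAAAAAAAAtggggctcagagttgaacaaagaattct
chr4:86721601-86721660, minus strand, intron of Slc24a2: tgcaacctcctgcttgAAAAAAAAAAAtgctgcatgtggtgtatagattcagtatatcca
chr12:101268921-101268980, plus strand, intron of Kcnk13: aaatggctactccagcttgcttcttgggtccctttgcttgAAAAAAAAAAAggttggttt

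The third set shows 2 wider peaks, the highest of all members shared by the ASC-48 hr libraries and a peak in an annotated copy of U6 inside Nrip3. The first holds the letters of the tRNA promoter element named the B box on the strand opposite to the reads.
chr13:21259921-21260020, plus strand, outside genes: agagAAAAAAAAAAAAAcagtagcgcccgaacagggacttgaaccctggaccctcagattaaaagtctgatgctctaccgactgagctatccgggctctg
chr7:116918101-116918180, plus strand, U6 gene in Nrip3: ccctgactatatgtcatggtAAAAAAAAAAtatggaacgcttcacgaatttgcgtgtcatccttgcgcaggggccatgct

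The fourth set comes from C2C12 and serves as a contrast, 3 of the highest by reads per bin among the A-run peaks that both C2C12 libraries shared, with no G stretch and no overlapping ASC-48 hr peak.
chr7:29601881-29601940, minus strand, exon of Hnrnpl: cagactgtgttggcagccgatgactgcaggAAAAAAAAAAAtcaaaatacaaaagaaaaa
chr16:23110801-23110860, minus strand, Snora81 in Eif4a2: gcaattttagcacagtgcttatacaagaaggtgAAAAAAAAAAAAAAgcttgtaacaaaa
chr13:5861081-5861140, minus strand, intron of Klf6: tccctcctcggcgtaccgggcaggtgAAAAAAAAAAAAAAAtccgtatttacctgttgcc

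Peaks on A runs took a larger part of each ASC-48 hr list than of either C2C12 list. Of the peaks with a reference sequence, their share was 1.73% in B1 T1 (95% Clopper-Pearson interval 1.45 to 2.03), 1.46% in B1 T2 (1.24 to 1.7), 2.29% in B2 T1 (1.97 to 2.65) and 2.2% in B2 T2 (2 to 2.42). The share was 0.575% (0.516 to 0.638) and 0.678% (0.619 to 0.74) in the C2C12 libraries. No interval of an ASC-48 hr library reached those of C2C12. Over all windows of 60 nt in the genome, a 20-nt bin with 20 nt on either side, 0.608% held an A run and no G run, which lay between the 2 C2C12 shares and below every ASC-48 hr share. Averaged over technical and then biological replicates, the share was 1.92% ± 0.462 (SD, n = 2) in ASC-48 hr and 0.626% ± 0.0729 (SD, n = 2) in C2C12. The difference of 1.29 percentage points had p = 0.33 in an exact two-sided permutation test over biological replicates, the smallest p that 2 against 2 allows. Runs of T, the same letters read on the other strand, were found in 0.282% to 0.329% of the ASC-48 hr peaks and in 0.13% and 0.165% of the C2C12 peaks.

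**Figure D1:**
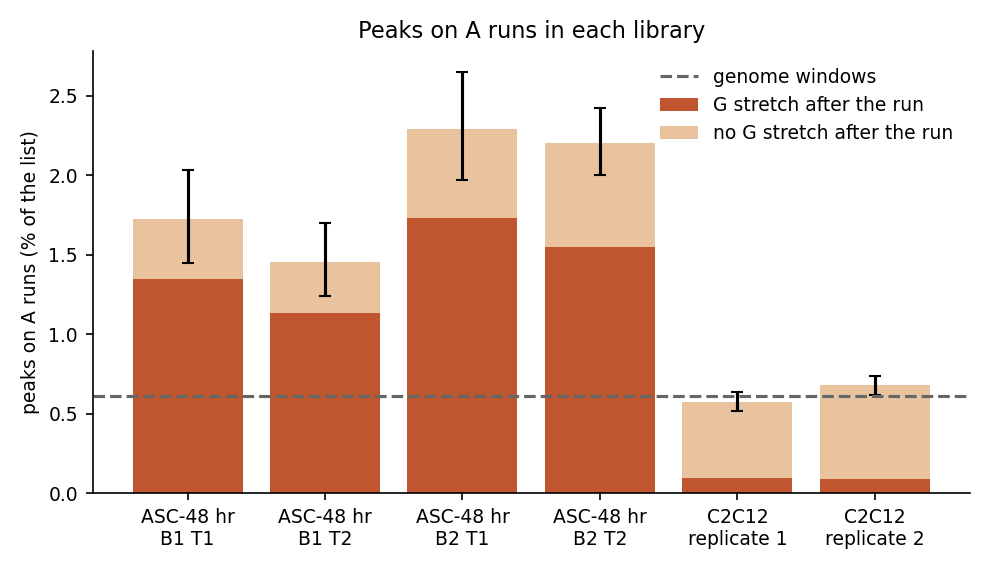
Share of each library's peaks, in percent, that lay on an A run without a G run, split into runs with at least 5 G within 3 nt after them and runs without. Error bars are 95% Clopper-Pearson intervals of the whole bar and the dashed line is the share of 60-nt genome windows, 0.608%; the 4 ASC-48 hr bars stand above the line mainly by their peaks with a G stretch.

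The letters after the run differed between the 2 cell types. At least 5 G followed the A run within 3 nt in 109 of 139 members in B1 T1 (78.4%, interval 70.6 to 84.9), 121 of 156 in B1 T2 (77.6%, 70.2 to 83.8), 135 of 179 in B2 T1 (75.4%, 68.4 to 81.5) and 296 of 421 in B2 T2 (70.3%, 65.7 to 74.6). In C2C12 the G stretch followed the run in 58 of 346 A-run peaks (16.8%, 13 to 21.1) and 65 of 485 (13.4%, 10.5 to 16.8). Of the genome windows with an A run and no G run, 0.272% held such a stretch. The mean was 75.4% ± 3.63 (SD, n = 2) in ASC-48 hr and 15.1% ± 2.38 (SD, n = 2) in C2C12, with p = 0.33 in the exact permutation test, again its floor. When the run and the stretch both had to fit inside the peak itself, mostly 20 nt, the ASC-48 hr share was 27.7% and its difference from C2C12 11.6 percentage points in place of 60.3. As a part of the whole list, the A-run peaks with a G stretch made up 1.13% to 1.73% of the ASC-48 hr peaks against 0.0963% and 0.0908% of the C2C12 peaks, whereas those without it made up 0.327% to 0.653% against 0.478% and 0.587%. Hence the larger share in ASC-48 hr lay in the peaks with the G stretch, and the ranges of the other A-run peaks overlapped between the cell types. Peaks on G runs, which the rule leaves out, also differed, with 8.44% to 13.4% of the ASC-48 hr peaks against 1.18% and 1.03% of the C2C12 peaks. Position by position, G stood in 72.1% of the ASC-48 hr members at the first base after the run, 83.8% at the fifth, 57.2% at the ninth and 29.2% at the tenth, where the rule itself limits the stretch. At the fifth base, G stood in 33.9% of the C2C12 A-run peaks and after 19.4% of all A runs of the genome.

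**Figure D2:**
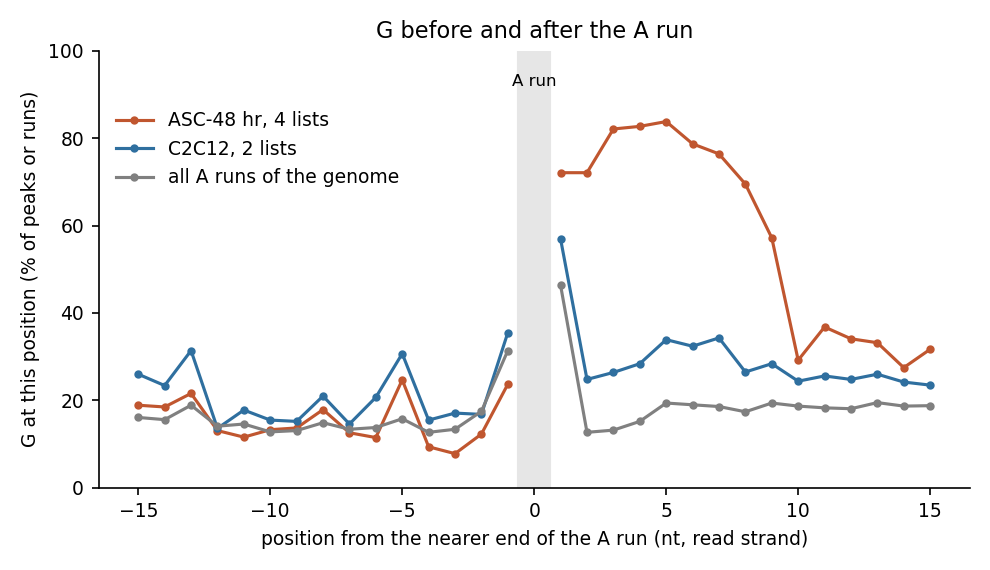
Percent of A-run peaks (4 ASC-48 hr lists, 2 C2C12 lists) and of all A runs of the genome that have G at each position before (negative) and after (positive) the run, on the strand of the reads. The ASC-48 hr line stays above 57% through the ninth base after the run.

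The bases before the run carried the second pattern. CTTN stood directly before the run in 43 of 139 members in B1 T1 (30.9%), 40 of 156 in B1 T2 (25.6%), 58 of 179 in B2 T1 (32.4%) and 107 of 421 in B2 T2 (25.4%). It stood there in 12.7% and 11.3% of the C2C12 A-run peaks and in 4.56% of all A runs of the genome. Among members without the G stretch, CTTN preceded the run in 30%, 28.6%, 43.2% and 48.8% of those in the 4 libraries, against 5.9% and 6.19% in the C2C12 libraries. Among those with the G stretch the order was the other way, with CTTN before 31.2%, 24.8%, 28.9% and 15.5% of the runs in the 4 libraries and before 46.6% and 44.6% in C2C12. A G stretch, CTTN or both were found in 84% to 86% of the members of each ASC-48 hr library, in 21.7% and 18.8% of the C2C12 A-run peaks and at 4.94% of the A runs of the genome. These letters were picked after the sequences had been seen, so the shares describe these libraries.

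How often a place in the genome had a peak was then counted from the genome side, over every A run of at least 10 A on either strand. Of A runs that a G stretch followed with no gap, the share with a peak in the 4 ASC-48 hr libraries was 0.357%, 0%, 1.07% and 2.14% of 280 sites at 5 G. It was 5.23%, 6.54%, 5.88% and 17.6% of 153 at 7 G, 12.1%, 14.8%, 11.4% and 35.6% of 149 at 8 G, and 24.9%, 27.2%, 31.5% and 55.4% of 213 at 9 G. In each library the share rose at every step from 5 to 9 G, and from 7 G on it was highest by far in B2 T2. Counted over any of the 4 libraries it was 56.3% at 9 G (interval 49.4 to 63.1), a value carried by B2 T2. Just outside the rule, at 10 G, the shares were 26.9%, 36.3%, 36.8% and 68.8% of 234, and all 10 sites with 13 G had a peak in each library. The members thus continued into the peaks with a G run that the rule leaves out. In C2C12 the share was 11.3% and 12.2% at 9 G and 0% and 0.357% at 5 G. The lowest A-run peak had 5, 5, 5 and 4 reads per bin in the 4 ASC-48 hr libraries but 6 in both C2C12 libraries. Sites with fewer than 6 reads per bin thus entered the ASC-48 hr lists only, and their part in these shares was not tested.

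**Figure D3:**
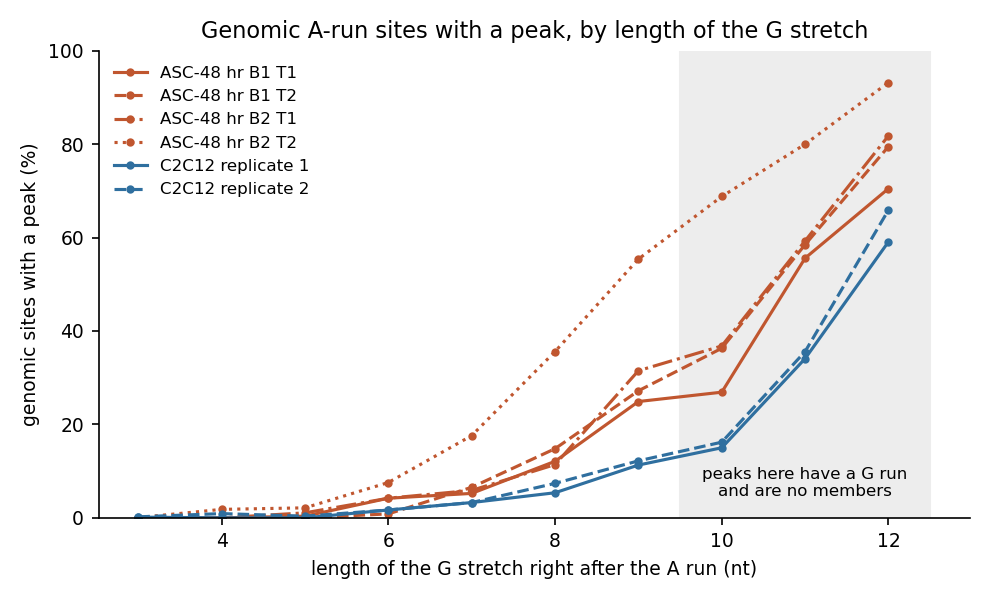
Percent of the genome's A runs, with a G stretch right after them, that had a peak on the same strand in each library, by the length of the G stretch in nt. At 9 G all 6 lines lie higher than at 5 G, and there the ASC-48 hr libraries lie at 24.9% to 55.4% against 11.3% and 12.2% in C2C12. The lowest A-run peak had 4 or 5 reads per bin in the ASC-48 hr lists and 6 in the C2C12 lists.

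The letters before the run went with a larger share of sites with a peak at each length of the G stretch. With 7 to 9 G after the run, the 4 libraries had a peak on 61.9%, 61.9%, 69% and 71.4% of the 42 runs with CTTN before them and on 11.3%, 13.4%, 13.7% and 32% of the 613 runs without it. With 5 or 6 G the shares were 12.7%, 6.35%, 15.9% and 25.4% of 63 with CTTN, and 0.629%, 0.898%, 1.08% and 4.76% of 1113 without. In C2C12 they were 50% and 52.4% with CTTN and 4.24% and 4.57% without it at 7 to 9 G. Where no G stretch followed, the longer match TGCTTG, likewise picked after the sequences were seen, had a peak on 5, 7, 9 and 18 of 116 runs in the 4 libraries and on 4 and 6 in C2C12, so that the B1 libraries were close to C2C12. The share also varied with the length of the A run, and not alike in the 4 libraries. At sites with 8 or 9 G and no gap, it was 16.2%, 16.8%, 15% and 28.9% on 173 runs of 10 A, and 28.6%, 28.6%, 45.7% and 74.3% on 35 runs of 13 to 15 A. On 26 runs of 16 to 20 A it was 80.8% in B2 T2 but 11.5%, 3.85% and 11.5% in the others. On 21 runs of at least 21 A it was 61.9% in B2 T2 and 9.52%, 23.8% and 28.6% in the others. C2C12 had a peak on 0 of the 26, which allows a share of up to 11.5%, and on 0 of the 21, which allows up to 14.3%.

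The number of reads on these peaks was low, and at shared sites it was nearly the same in every library. Member peaks had a median of 4 reads per 20-nt bin in B2 T2 and of 6 in each of the other 3 libraries, close to the lowest member's value, which was 4 and 5. The highest were 14.7, 13.3, 18 and 15. Peaks on neither an A run nor a G run had medians of 5, 6, 6 and 4 but reached 46 to 62. At the site in Swap70, which encodes an actin-binding signalling protein, the 4 lists gave 9, 10, 10 and 9 reads per bin, and 8 and 9 in C2C12. At the site in the long non-coding RNA D030068K23Rik every one of the 6 libraries gave 9. The site at chr9:67662561-67662580, with the short stretch of 5 G, had 11, 10, 11 and 11, and 11 in both C2C12 libraries. At each of these sites the 6 values lay within 2 reads of each other, although the C2C12 lists were the longer ones.

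This evenness was measured over all shared peaks that were 1 bin wide and listed in all 4 ASC-48 hr libraries, where shared means an overlap of at least 1 nt on the same strand. For the 76 with an A run and G stretch, the median SD of the reads per bin over the 4 libraries was 0.539 at a median mean of 6.12, and in 69 of them (90.8%) the highest and lowest library differed by 2 reads or less. For the 1134 on neither run the median SD was 1.5 at a median mean of 7.25, and 38.8% were within 2 reads. Restricting both to a mean of at most 12 reads per bin left 76 and 960 peaks, with shares of 90.8% and 45.2%. Of the 37 sites with a G stretch that were also listed in both C2C12 libraries, 33 (89.2%) had all 6 values within 2 reads, against 60 of 549 (10.9%) of the peaks on neither run. There the C2C12 mean exceeded the ASC-48 hr mean by a median of 0.25 reads per bin on the G-stretch sites and by 2 on the others. Peaks on G runs, which the rule leaves out, gave 91.8% and 85.4% for the same 2 shares. The few single-bin shared members without a G stretch gave 7 of 9 (77.8%) and 6 of 7 (85.7%), with a median SD of 0.816. The evenness was thus not particular to runs with a G stretch. The cutoff below which no peak is listed narrows the spread of low peaks in every class.

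**Figure D4:**
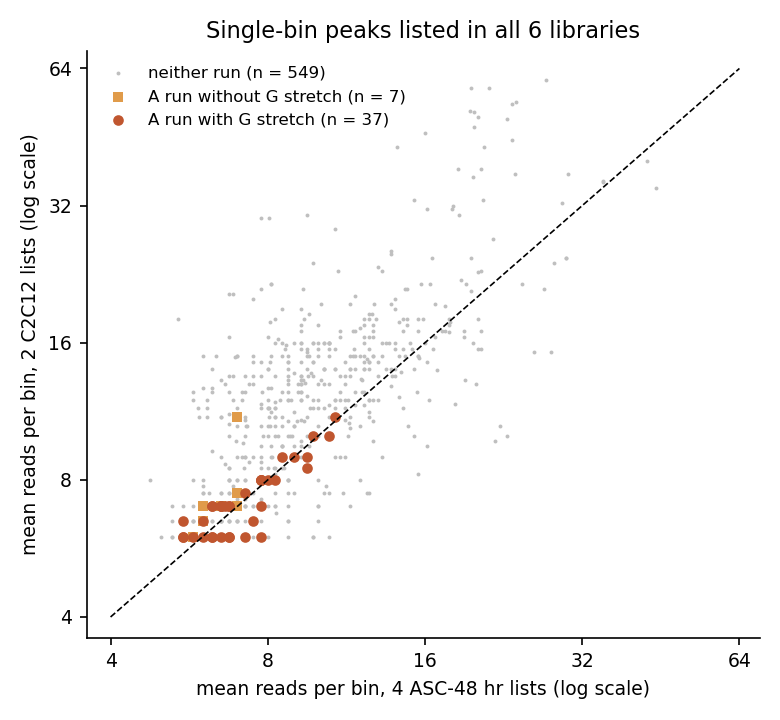
Mean reads per 20-nt bin in the 4 ASC-48 hr lists against the mean in the 2 C2C12 lists, on log axes, for single-bin peaks that overlap a peak in all 6 libraries; the dashed line marks equal values. The 37 A-run peaks with a G stretch lie along the line at no more than 11 reads, while the peaks on neither run had a median of 9.25 in ASC-48 hr and 12.5 in C2C12.

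Members with a G stretch were found again in other libraries more often than peaks without runs. Of the members with a G stretch in B1 T1, 78.9% overlapped a peak of B1 T2, the technical replicate, and 84.4% a peak of B2 T1, the other biological replicate. For the members without a G stretch these shares were 80% and 56.7%, and for peaks on neither run 69.3% and 27.2%. For peaks on G runs, which the rule leaves out, they were higher than for the members, at 91.8% and 86.5%. From B2 T1, 93.3% of those with a G stretch were found in B2 T2 and 68.1% in B1 T1, against 58.4% and 28.9% of the peaks on neither run. Of the B2 T1 peaks on G runs, 98.3% and 88.3% were found there. B2 T2, the longest list, had 35.8% of its members with a G stretch in B1 T1, against 13.6% of those without one and 13.9% of its peaks on neither run. Of its peaks on G runs, 63.1% were found in B1 T1. Merging overlapping members of the 4 lists gave 463 regions, of which 88 were members in all 4 libraries, 53 in 3, 62 in 2 and 260 in 1. Of those 260, 229 came from B2 T2 alone. In the stricter count of shared peaks, T1 with T2 within each biological replicate and then B1 with B2, 92 members remained among 2412 shared peaks with a reference sequence (3.81%), and 76 of the 92 held a G stretch.

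Between the cell types the overlap differed by direction and by kind of A-run peak. Of all B1 T1 members, 45.3% overlapped a peak of C2C12 replicate 1. The other way it was 18.2% of the A-run peaks of replicate 1. For those with a G stretch the 2 shares were 44% and 82.8%, and for those without 50% and 5.21%. Of the 92 shared ASC-48 hr members, 50 (54.3%, interval 43.6 to 64.8) overlapped a peak shared by both C2C12 libraries, beside 57.8% of 1425 shared peaks on neither run. It was 48.7% of the 76 shared members with a G stretch, 81.2% of the 16 without one and 68.4% of the shared peaks on G runs. The number of shared members and their share in C2C12 changed with the filter and the libraries used. At p of at most 0.00001 they were 14 and 21.4%, and without B1 160 and 35%. With at least 6 reads per bin, the lowest of any C2C12 A-run peak, they were 43 and 83.7%. Of the 463 regions, 99 (21.4%) overlapped a peak of either C2C12 library, with 63 of the 88 regions found in all 4 ASC-48 hr libraries (71.6%) but 10 of the 260 found in 1 (3.85%). In the other direction, taken against 1 ASC-48 hr list at a time, the C2C12 A-run peaks with a G stretch were mostly found. B2 T2 held 89.7% of those of C2C12 replicate 1 and 89.2% of those of replicate 2, and B1 T1 held 82.8% and 76.9%. Of the C2C12 peaks on G runs, which the rule leaves out, B2 T2 held 95.1% and 93.9%. The C2C12 A-run peaks without a G stretch were found in B2 T2 at 6.6% and 5%, close to the 5.37% and 4.62% of C2C12 peaks on neither run. Of the A-run peaks without a G stretch in replicate 1, 47.9% were found again in replicate 2, beside 47.5% of its peaks on neither run.

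The 16 shared members without a G stretch were few enough to be named by kind, and the kinds were chosen with their sequences in view. The B box motif, searched as the letters GGTTCNA or, as read on the strand of the peak, TNGAACC, was in 5 of them, a further 2 lay in annotated U6 genes, 1 outside genes shared at least 20 nt with a U6 peak, 7 had CTTN before the run and 1 had none of these. The B box letters were in 6, 6, 6 and 8 members of the 4 libraries (4.32%, 3.85%, 3.35% and 1.9%), below their shares of 7.09%, 6.4%, 4.99% and 3.45% among all peaks of those lists. In C2C12 they were in 11 and 9 A-run peaks (3.18% and 1.86%), above the 1.27% and 1.02% of all peaks. Over all 60-nt genome windows the share with these letters was 0.898%, and 0.472% among those with an A run and no G run. Peaks with the B box letters were the 4 highest of the shared members, by the reads of the overlapping peak in each list, whether or not that peak was itself a member. The site at chr13:21259941-21260000 had 10, 18, 11 and 12 reads per bin in the 4 libraries and 18 in both C2C12 libraries. The site at chr11:97563761-97563820 had 9.33, 12.5, 9 and 15, and that at chr1:167572401-167572460 had 11.3, 16, 8 and 9.67. These 3 sites varied between libraries, with SDs of 3.59, 2.84 and 3.45 reads per bin. They were wider than 1 bin, whereas the spread of the G-stretch sites was taken over single-bin peaks with a median mean of 6.12. The kinds also overlapped: the G-stretch site in D030068K23Rik held the B box letters and had an SD of 0. In the peak at the U6 copy in Nrip3, 7, 9.5, 10.5 and 7.25 reads per bin were listed. Neither C2C12 library had a peak over the same bins, whereas the wider region merged over the 4 libraries touched a C2C12 peak. U6 is a name that 936 annotated loci share, and 4 regions fell in genes of that name, the most of any symbol.

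Against the genes, the members leaned to the opposite strand less than the C2C12 A-run peaks did. Among members in genes of a single orientation, the reads lay opposite to the gene in 42 of 67 in B1 T1 (62.7%, interval 50 to 74.2), 48 of 73 in B1 T2 (65.8%), 57 of 83 in B2 T1 (68.7%) and 119 of 181 in B2 T2 (65.7%, 58.3 to 72.6). In C2C12 it was 212 of 241 (88%, 83.2 to 91.8) and 262 of 313 (83.7%, 79.1 to 87.6). The 4 ASC-48 hr values lay below both C2C12 values, with means of 65.7% ± 2.11 and 85.8% ± 3.01 (SD, n = 2 each) and p = 0.33 in the exact permutation test. The sequence itself is unevenly placed. Of all genomic sites with 5 to 9 G after an A run and within genes of a single orientation, 62.8% of 855 lay opposite to the gene, 65% of the 143 with an ASC-48 hr peak and 62.4% of the 712 without one. The members with a G stretch lay at 64.8% to 67.8% in the 4 libraries. The C2C12 A-run peaks with a G stretch lay at 58.1% and 59.4%, and those without it at 86.5% and 92.3%. Since the ASC-48 hr peaks on neither run also ranged from 59.5% to 76.8%, the lower share was not confined to A runs in these cells.

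Most members lay outside genes or in introns. Between 50.4% and 55.6% of each ASC-48 hr library's members were outside annotated genes, 39.9% to 44.6% in introns, 2.14% to 3.21% in untranslated regions and 2.38% to 3.91% in other exons. None of the 895 lay in a coding exon, which over their 463 merged regions allows a share of up to 0.648%, whereas 6% to 13.8% of the ASC-48 hr peaks on neither run did. This was not particular to A runs, since 0% to 0.124% of the ASC-48 hr peaks on G runs lay in a coding exon. In C2C12, 26.9% and 32% of the A-run peaks were outside genes, 48.8% and 48% in introns, and 17.6% and 14.6% in untranslated regions. The C2C12 A-run peaks with a G stretch resembled the members, with 44.8% and 49.2% outside genes and 3.45% and 3.08% in untranslated regions. The means over replicates differed by 22.4 percentage points outside genes and by -13.6 points in untranslated regions (ASC-48 hr minus C2C12), both with p = 0.33, the floor of the exact permutation test. Peaks on neither run differed in the same way, with 38.8% to 47.8% outside genes in ASC-48 hr against 18.4% to 22.3% in C2C12, and 2.45% to 5.25% against 14% to 16.4% in untranslated regions, so the contrast was not particular to A runs. The letters GGAC, a core of the m6A motif, were found on the strand opposite to the reads in 6.92% to 9.25% of the single-bin members and in 15.4% to 19.4% of the single-bin ASC-48 hr peaks on neither run, in windows of the same length of which the runs fill a part. On the strand of the reads they were in 11.6% to 12.3% and 19.5% to 21%, so the lower share was not confined to a single strand. Single-bin ASC-48 hr peaks on G runs held them on the opposite strand in 6.22% to 6.51%, so it was not particular to A runs either.

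The run was placed differently against the peak. Its middle lay to the 3′ side of the peak's middle in 37.4%, 35.9%, 36.9% and 38.7% of the members of the 4 libraries, and in 71.4% and 67.4% of the C2C12 A-run peaks, with means of 37.2% ± 0.807 and 69.4% ± 2.8 (SD, n = 2 each, exact permutation p = 0.33). The median middle was 4 to 6 nt before the peak's middle in ASC-48 hr and 11.5 and 12.5 nt after it in C2C12. A G stretch has to fit in the window after the run, which keeps such runs from its 3′ end, so the 2 kinds are plotted apart. Among runs with a G stretch, 37.5% to 41.3% in ASC-48 hr and 48.3% and 40% in C2C12 lay to the 3′ side. Among runs without one it was 22.9% to 41.6% in ASC-48 hr against 76% and 71.7% in C2C12, so the cell types differed in the runs without a G stretch.

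**Figure D5:**
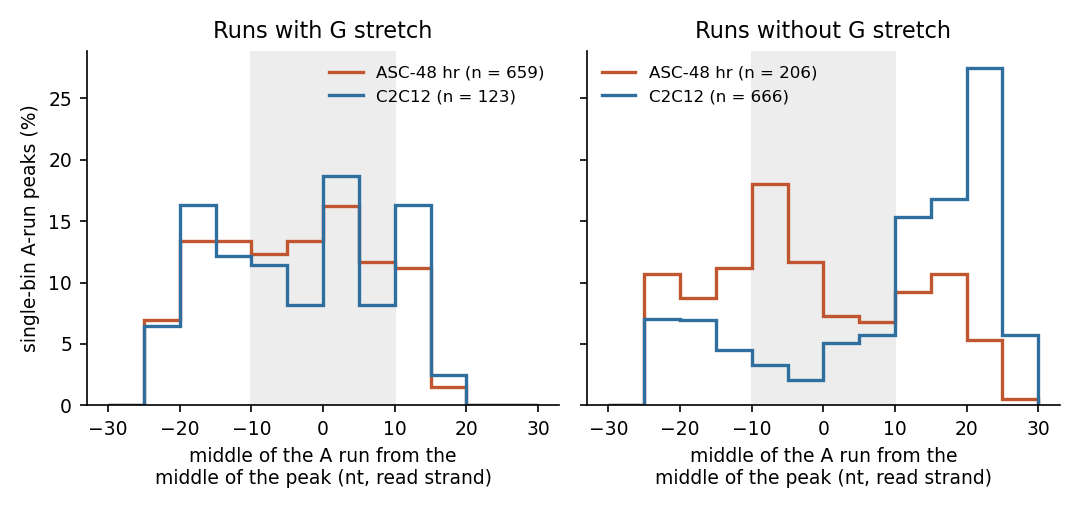
Distance in nt from the middle of the peak to the middle of the A run, on the strand of the reads, for single-bin peaks pooled over the 4 ASC-48 hr and the 2 C2C12 lists; the grey band is the 20-nt peak. With a G stretch the 2 cell types overlap, while without it 27.5% of the C2C12 runs lie 20 to 25 nt after the middle against 5.34% in ASC-48 hr.

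The number of copies limits how a read can be placed. The 20-nt sequence in the peak occurred once in the genome in 44.6%, 47.4%, 43% and 48% of the members and more than 10 times in 25% to 30.2%. The highest number of copies was 492516. Extending the sequence to 30 nt made 83.5% to 87.9% single-copy by exact match. The study's alignment allowed mismatches, and how uniquely its reads could be placed was not tested. Of the ASC-48 hr peaks on neither run, 60.6% to 74.5% were single-copy at 20 nt and 69.2% to 84% at 30 nt. Their 20-nt sequence occurred more than 10 times in 10.5% to 22.9%. For the C2C12 A-run peaks the single-copy shares were 48.8% and 39.2% at 20 nt and 73.4% and 61.4% at 30 nt. At 20 nt the ASC-48 hr mean of 45.8% ± 0.369 and the C2C12 mean of 44% ± 6.84 (SD, n = 2 each) differed by less than the spread of C2C12, with an exact permutation p of 1.

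The members were spread thinly over genes. They fell in 219 genes, of which 214 held a single region, and 205 were protein coding with a median length of 74056 nt, against 43031 nt for protein-coding genes with an ASC-48 hr peak on neither run and 15420.5 nt for all annotated protein-coding genes. Besides U6, 4 genes held 2 regions each: Gnal, which encodes a G protein alpha subunit, Corin, a membrane protease, Trappc4, a subunit of a vesicle-tethering complex, and Magi1, a scaffold of cell junctions. The shared peak in Gnal lay in an annotated copy of U6 on the other strand, so that site is counted under both names. Both regions in Trappc4 had a G stretch, and none of those in Gnal, Corin and Magi1 did. The next genes by reads per bin each held 1 region listed in all 4 ASC-48 hr libraries. With a G stretch these included Swap70, D030068K23Rik, Lrrc4 and Snd1 (which overlap at the same region), Coch, Fosl1, Phldb2, Jakmip2, Sctr, Dennd1a and Flywch1, and without it Nrip3, Egr1 and Hs3st5. The region lay opposite to Swap70, Nrip3, Snd1, Jakmip2, Sctr, Egr1, Hs3st5 and Dennd1a, and on the strand of the others. Fosl1 and Egr1 encode transcription factors of the early response to growth signals. The peak in Egr1 lay in an untranslated region and had 7 reads per bin in all 4 ASC-48 hr libraries and 7 and 8 in C2C12.

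Of 33924 annotated gene symbols, 0.646% held an ASC-48 hr member region. Lists of the size used here would thus hold few or none whatever their genes. The shares of all symbols with any ASC-48 hr peak or with a C2C12 A-run peak are not given, so nothing is read from the counts. Of 14 satellite cell and myoblast markers, 10 held any ASC-48 hr peak and 1 an A-run peak, Myf5, an activator of the myogenic program, by a single peak in B2 T1. Of the 11 markers of endothelial, fibro-adipogenic, immune and myofibre cells, 8 held any ASC-48 hr peak and 0 an A-run peak. Of 24 genes of the m6A pathway, with writers such as Mettl3, erasers and readers such as Ythdc1, 16 held any ASC-48 hr peak and 0 a member. In the longer C2C12 lists 4 of the 24 held an A-run peak: Ythdf3, Srsf3, Neat1 and Xist. Peaks of any kind in the 2 C2C12 lists were 214 and 221 in Neat1 and 151 in each for Xist. They were 18 and 21 in Ythdf3 and 7 and 11 in Srsf3.

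At its thresholds the rule cut through a continuous range. Among peaks without a G run, a longest A run of 10 was found in 52, 45, 55 and 124 members of the 4 libraries, and a longest run of 9 in 14, 13, 13 and 56 peaks just outside. With an A run, a longest G stretch of 9 was found in 61, 67, 77 and 131 members, and one of 10 in 77, 99, 98 and 179 peaks just outside. Between 93.5% and 98.3% of the members were 1 bin wide. The A run had a median length of 11 in each ASC-48 hr library and 12 in both C2C12 libraries.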

How the data were processed

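LACE-seq peak lists of 6 libraries were analysed. The authors trimmed adapters and runs of A with Cutadapt 1.15, removed reads of pre-rRNA, aligned the rest to mm9 with Bowtie 1.2.3 at several positions per read, and called peaks in each library with Piranha in 20-nt bins. How duplicate reads were treated was not given in the sources used here. The deposited signal of a peak is its number of reads per 20-nt bin, a mean over bins for wider peaks and not normalised, and the deposited p-value is Piranha's own, at most 0.000995. Library totals, and so the depth, are unknown. A read placed at several positions can count at each.

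Windows of each peak with 20 nt on either side were read from NCBIM37 (mm9), and genes from GENCODE vM1. Peaks on unplaced sequence (61 to 420 per list) had no reference and were left out of shares. A G stretch is at least 5 G starting within 3 nt of the run. A site counted as having a peak when its middle lay in a peak's window on its strand. Copies were exact matches on either strand. Calculations used Python 3.11.15, numpy 2.4.6, pandas 2.3.3, scipy 1.17.1, pysam 0.24.0, numba 0.67.0, samtools 1.23.1 and matplotlib 3.10.9, and were tested on simulated peaks with planted runs, where all 4 kinds of call recovered 100% of those planted.

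Shares carry 95% Clopper-Pearson intervals for the counting error of peaks, not the spread between samples. An upper limit for a count of 0 is 3 counts. Cell types were compared with exact permutation tests over biological replicates for 9 measures. After Benjamini-Hochberg adjustment 0.33 became 0.375. Technical replicates were averaged first. Genes named are the 20 with most member regions, ties by reads, any with at least 2 shared members, and those of the marker and m6A lists with a member. Regions named are from the 10 shared members with most reads, with examples of each kind added after their sequences were seen. The members and lists were chosen with earlier results of these data known, and the G stretch and CTTN after seeing the sequences. Repeats and tRNA genes were not annotated here. Some of the sites chosen by these rules are not reported here.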

Additional observations from a re-analysis of the deposited data

Results flagged for a closer look

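Of 20 series of 4 ASC-48 hr values checked for a value far from the other 3, 6 had one. The cutoff allows about 1 in 20 by chance for independent values without ties. These series share the same 4 libraries and some hold tied whole numbers, so that rate does not apply. Library B2 T2 stood apart in 3: it held 421 A-run peaks, its median was 4 reads per bin, and 55.6% of its A-run peaks lay outside genes. It also listed the most peaks of the 4 libraries. The other 3 were single sites whose remaining libraries were equal, so that a difference of 1 or 2 reads is flagged: B1 T2 with 10 reads per bin at chr9:67662561-67662580, and B1 T1 with 9 at each of the other two.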

How the results depend on the processing

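In all, 152 alternatives were computed, and a direction could be reversed only in the 34 of differences between cell types. These 34 kept their sign but not their size. The difference of the A-run share was 1.29 percentage points as reported and 1.19 with at least 6 reads. It was 0.138 with at least 15 A, 0.158 for T runs and 3.66 with G-run peaks kept. That of the G stretch was 60.3 points, 58.7 with at least 6 reads, 11.6 with runs inside the peak only and 73.1 with at least 15 A. Of the other 118, 67 stayed within the spread between libraries (1.5 times for a count, the interval for the share found in C2C12) and 51 did not. With the replicate block the differences were 1.29 and 60.3 points (exact paired permutation p = 0.5 each), although the numbers pair different cells. No p can fall below its floor in this design, so p says nothing of stability.

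With at least 8 A in a row, 48.5% of members were single-copy and 69% had a G stretch. With at least 15 A, the share was 0.315%, shared members were 15, 69.8% lay opposite to the gene, 33.9% in introns, 22.1% were single-copy, 42.3% had the run on the 3′ side and 0% had CTTN. With runs inside the peak only, 71.7% lay opposite to the gene, 42.7% outside genes and 54.8% in introns, 9.76% were single-copy, 27.7% had a G stretch and 16.5% CTTN. With G-run peaks kept, the share was 4.52%, shared members 268, 45% outside genes, 52.1% in introns, 37.4% single-copy, 34.2% on the 3′ side, 87.7% with a G stretch and 17.7% with CTTN. At p of at most 0.00001, shared members were 14, of which 21.4% were in C2C12, with 52.8% opposite to the gene, 37.6% single-copy, 33.8% on the 3′ side and 48.1% with CTTN. With at least 6 reads, shared members were 43, of which 83.7% were in C2C12, with 61.2% opposite, 39.8% in introns, 32.3% on the 3′ side and 39.2% with CTTN. With single-copy sequences only, the share was 1.4%, shared members 40, of which 42.5% were in C2C12, with 69.4% opposite, 48.9% outside genes, 46.4% in introns, 31.3% on the 3′ side, 67.8% with a G stretch and 33.4% with CTTN. The cause of these shifts was not tested.

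Counting members found in at least 1 library of each replicate gave 171 shared, and counting either C2C12 library put 71.7% of the shared in C2C12. A G stretch of at least 3, at least 7 or without a gap was found in 79.9%, 63.9% and 56.6% of members. Leaving out a biological replicate, shared members ranged from 110 (without B2) to 160 (without B1), and 35% to 49.1% of them were in C2C12. Without B2 T2, left out after seeing the data, shared members were 94, 55.3% of them in C2C12, and the differences 1.32 and 61.6 points.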
